A study of Mus musculus with 2 samples.

Results

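The 10 genes described here encode transcription factors that mark states of T cells in tumors. They were found by symbol in the gene list of the files (Tcf7, Lef1, Bach2, Id3, Tox, Nr4a1, Nr4a2, Tbx21, Eomes and Id2, 10 of 32285 genes), and each had unique transcript molecules (UMIs) in the T cells of both libraries. T cells were barcodes with at least 2 UMIs summed over Cd3d, Cd3e and Cd3g, the chains of the T cell receptor complex. They numbered 497 of 8739 kept cells in the FLOX library and 395 of 11689 in the library labelled MCT1-KO. CD8 T cells held UMIs of Cd8a or Cd8b1 but none of Cd4 (331 and 218 cells), and CD4 T cells the reverse (69 and 66 cells). A further 87 and 109 T cells held neither, and 10 and 2 held both. CD8 and CD4 T cells were split again by any UMI of Pdcd1, the gene of the inhibitory receptor PD-1, into Pdcd1+ and Pdcd1- cells.

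The study asked how the lactate transporter MCT1 of pancreatic stellate cells (PSCs), the collagen-making fibroblasts of the pancreas, shapes the immune cells of pancreatic tumors. Tumors of KPC cells, a mouse pancreatic cancer line, were grown in the pancreas of flox mice (FLOX, MCT1 fl/fl) and of mice that also carry Col1a2-CreERT2 (MCT1-KO), a Cre recombinase that tamoxifen activates in cells using the collagen gene Col1a2. Tamoxifen in corn oil was injected into the abdomen before the tumor cells were implanted, and corn oil alone is also named, without saying which mice received it. All live cells of the dissociated tumors were sequenced without sorting as 1 library per condition, and the mice were male. The number of mice behind each library is not given in the sources used here, and an age is stated only for purchased C57BL/6 mice, without tying it to these groups. With 1 library each, a difference between the libraries has no replicate check. Every interval below is a 95% interval for counting error only.

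T cells that meet their antigen for a long time pass through a graded series of states. TCF1 (from Tcf7), LEF1, BACH2 and ID3 keep T cells naive, memory-like or able to renew, and cells that hold TCF1 feed the exhausted pool. TOX and the NR4A nuclear receptors act downstream of chronic receptor signalling and NFAT and establish exhaustion, whereas T-bet (from Tbx21), EOMES and ID2 drive effector and late differentiation. TOX is needed for exhausted cells to persist in tumors, and the NR4A genes are also immediate-early genes that many cell types switch on within minutes of stimulation or stress.

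On mouse build GRCm38 (GENCODE vM21, matched by Ensembl identifier) the stem-like group lay at chr11:52252371-52283014 (Tcf7), chr3:131110471-131224356 (Lef1), chr4:32238804-32586108 (Bach2) and chr4:136143497-136145755 (Id3). The exhaustion group lay at chr4:6686353-6991557 (Tox), chr15:101254269-101274795 (Nr4a1) and chr2:57106830-57124003 (Nr4a2). The effector group lay at chr11:97098071-97115331 (Tbx21), chr9:118478212-118486132 (Eomes) and chr12:25093799-25097140 (Id2). All 10 are protein-coding. An antisense gene overlaps Tcf7 (A630014C17Rik), Lef1 (Gm43352), Tox (Gm11802), Eomes (Gm33460) and Bach2 (Bach2os), and Bach2it1 lies in an intron of Bach2 on the same strand. Whether the counting used strand is not stated, and how reads were shared between these 5 genes and their partners was not examined. A promoter was matched by symbol in RefSeq for 9 of the 10 genes, all but Tox. The promoters of Nr4a1 and Nr4a2 are shown because both genes were found in every cell class of the tumors and because they shared a feature that the other members lacked. Each held 4 copies of the short core of the cAMP response element, CGTCA or, read on the other strand, TGACG, marked in capitals in the 250 bases before the start site (RefSeq, GRCm38.p6).

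Nr4a1 promoter, chr15:101266596-101266845, plus strand: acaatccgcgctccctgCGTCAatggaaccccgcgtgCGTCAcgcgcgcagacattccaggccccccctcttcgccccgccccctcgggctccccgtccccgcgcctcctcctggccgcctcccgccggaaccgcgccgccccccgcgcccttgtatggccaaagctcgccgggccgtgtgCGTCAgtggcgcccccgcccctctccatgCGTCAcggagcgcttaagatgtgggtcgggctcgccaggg

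Nr4a2 promoter, chr2:57124004-57124253, minus strand: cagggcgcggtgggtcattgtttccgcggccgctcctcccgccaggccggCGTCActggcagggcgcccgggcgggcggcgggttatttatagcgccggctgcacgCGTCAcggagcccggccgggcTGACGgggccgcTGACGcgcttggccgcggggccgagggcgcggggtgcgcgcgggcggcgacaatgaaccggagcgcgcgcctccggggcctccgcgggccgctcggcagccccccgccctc

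Of 32851 promoters searched in the same 250 bases, 17.8% held at least 1 such core and 45, or 0.137%, held 4 or more. Id3 held 1 and the other matched members held 0. The motif was picked with these sequences in view, and the match is a description of the letters.

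The 2 libraries differed in ways that touch T cell values. Median UMIs per cell were 3491 and 3128 in CD8 T cells (FLOX and MCT1-KO) and 5478 and 2582 in CD4 T cells. Heat shock and acinar RNA stood apart between the libraries. Hspa1a, a stress-induced chaperone, was at 532 CPM (UMIs of a gene per 1000000 UMIs of the same cells) in FLOX CD8 T cells and 15.7 CPM in those labelled MCT1-KO, and 8 of 12 immediate-early and heat shock genes were lower in the latter, beside 8.45% of all genes. The summed level of 10 acinar genes, which T cells do not make, was 176 and 2440 CPM in CD8 T cells and 345 and 18303 CPM in free RNA, taken from barcodes of 10 to 100 UMIs. T cells that also passed the marker gate of another class than NK cells made up 15.7% and 9.17% of CD8 and 30.4% and 9.09% of CD4 T cells. The label was checked with Slc16a1, the gene of MCT1, in fibroblast-like cells. It held 63 UMIs in 206 FLOX cells (34.1 CPM) and 105 UMIs in 339 cells of the other library (38.0 CPM), a ratio of 1.11 (0.808 to 1.55). The deletion was therefore not seen in these counts, although tags from the 3′ end of a transcript can lie outside the deleted stretch and then check nothing. The paper itself reports lower MCT1 in PSCs of its single-cell data, and in PSCs by Western blot, PCR and immunofluorescence. Of the kept cells, 59 barcodes occurred in both libraries, and none of these was a T cell.

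Among the 10 genes, Tox was the one most limited to T cells. The CPM of a subset sums the UMIs of all its cells. Over all T cells Tox stood at 521 CPM in FLOX and 320 CPM in the library labelled MCT1-KO, which was 89.7 and 122 times its level in free RNA. The highest other class was NK-like cells (20 and 25 cells), with 77.8 and 35.8 CPM on only 5 and 3 UMIs. Lef1 in T cells was 50.7 and 84.3 times its free RNA level, Tbx21 38.6 and 49.3 times, and Eomes 29.1 and 31.0 times. NK-like cells, which use T-bet and EOMES as T cells do, held more Tbx21 than T cells (171 against 74.3 CPM, and 311 against 62.4 CPM).

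The other members were shared with further cell types. Bach2 was highest in B-like cells (284 and 320 CPM), where BACH2 is known for its part in B cell maturation, against 73.9 and 108 CPM in T cells. Id2 was highest in dendritic-like cells (1276 and 967 CPM), which need ID2 to develop, against 654 and 606 CPM in T cells. Id3 was highest in fibroblast-like cells (771 and 589 CPM). In T cells it was at 95.8 and 62.4 CPM, only 0.289 and 0.297 times its level in free RNA. Nr4a1 in T cells was likewise below free RNA (433 against 1013 CPM and 586 against 1166 CPM), and was highest in neutrophil-like cells in FLOX (1539 CPM) and in tumor epithelial-like cells in the other library (1417 CPM). Nr4a2 stood at 557 and 540 CPM in T cells, 5.25 and 3.18 times free RNA. The UMIs of Id3 and Nr4a1 that T cells made themselves and those picked up from free RNA could not be told apart.

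**Figure D1:**
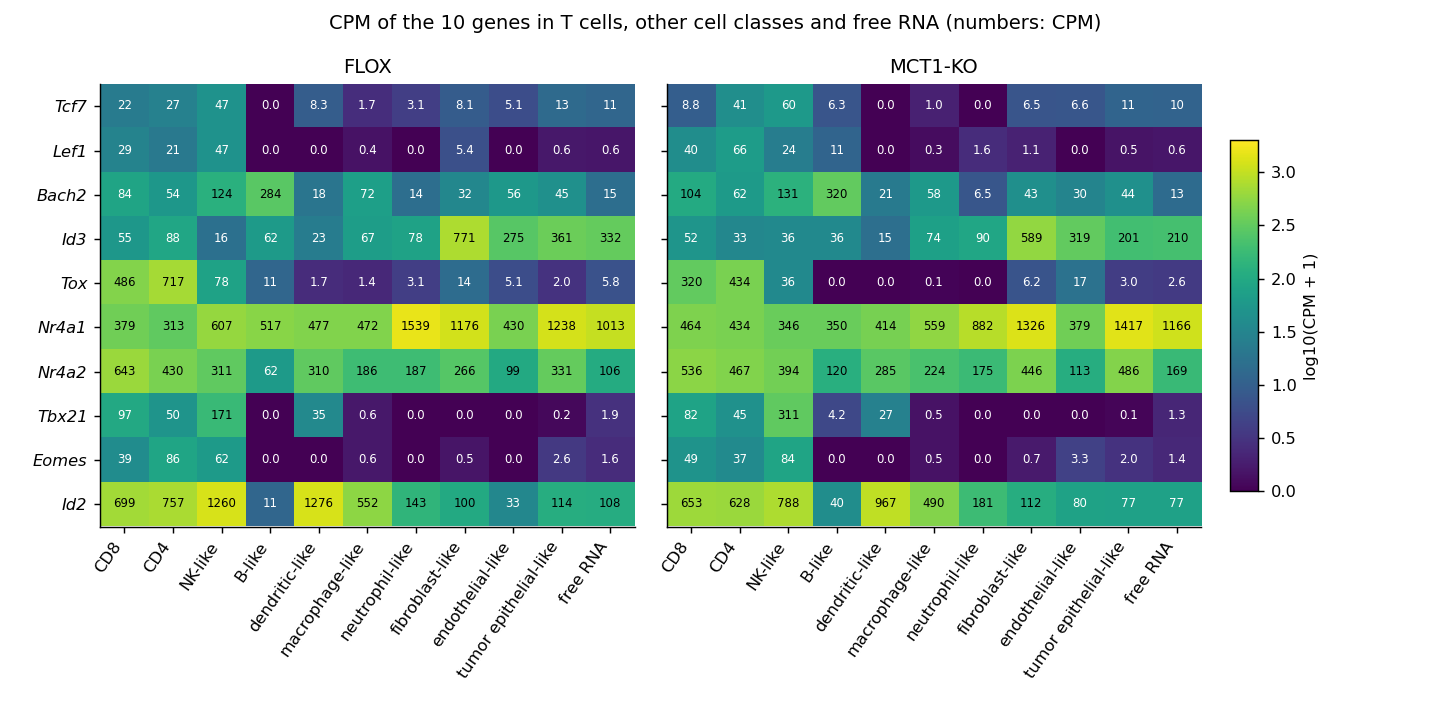
CPM of the 10 genes (rows) in CD8 and CD4 T cells, 8 other cell classes set by marker gates, and free RNA (columns), for each library, with the colour on a log10(CPM + 1) scale and the CPM printed in each field. Outside T and NK-like cells Tox reaches at most 16.6 CPM, and Tbx21 is at 34.8 and 27.0 CPM in dendritic-like cells, whereas Id3 and Nr4a1 are higher in free RNA than in T cells.

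The stem-like group was sparse in CD8 T cells. Tcf7 had 35 UMIs in 27 of 331 FLOX CD8 T cells (22.3 CPM, interval 15.5 to 31.0) and 9 UMIs in 8 of 218 cells of the library labelled MCT1-KO (8.80 CPM, 4.02 to 16.7). The second value lay at the level of free RNA (10.1 CPM), and the first was 1.99 times it (11.2 CPM). The ratio of the libraries was 0.395 (0.167 to 0.838) on 44 UMIs, under the minimum of 50 set for a call, and over all T cells the levels were 24.6 and 21.2 CPM. The CD8 T cells with a Tcf7 UMI made up 8.16% (5.44 to 11.7) and 3.67% (1.60 to 7.10). At a fixed depth of 1000 UMIs per cell these shares were 2.13% (7 of 328 cells) and 1.42% (3 of 211), with intervals that overlap widely. In macrophage-like cells, which should lack Tcf7, the unthinned shares were 0.964% and 0.536% at median depths of 5654 and 4856 UMIs. In tumor epithelial-like cells they were 12.08% and 11.99% at median depths of 9028 and 14011 UMIs, above the shares in CD8 T cells, while the levels were 12.9 and 10.6 CPM.

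Lef1, the partner of TCF1, had 45 UMIs in FLOX CD8 T cells (28.7 CPM, 20.9 to 38.4) and 41 in those labelled MCT1-KO (40.1 CPM, 28.8 to 54.4), a ratio of 1.40 (0.893 to 2.18). The CD4 T cells held 10 and 16 UMIs (20.9 and 66.1 CPM), a ratio of 3.17 (1.35 to 7.81) that rests on 26 UMIs. Bach2, which restrains effector genes, stood at 84.1 CPM (132 UMIs) and 104 CPM (106 UMIs) in CD8 T cells, a ratio of 1.23 (0.946 to 1.60). Id3, an inhibitor of E proteins found in memory precursors, stood at 54.8 and 51.8 CPM (86 and 53 UMIs), a ratio of 0.946 (0.659 to 1.35). None of these 4 genes was called in CD8 T cells, Tcf7 because of its 44 UMIs.

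Within CD8 T cells Lef1 was lower where Pdcd1 was detected, in both libraries. In FLOX it was at 21.7 CPM in Pdcd1+ and 45.2 CPM in Pdcd1- cells, a ratio of 0.481 (0.257 to 0.908). In the other library it was at 24.9 and 65.9 CPM, a ratio of 0.377 (0.188 to 0.735). Each ratio rests on fewer than 50 UMIs, and it stayed under 1 in all 13 and 15 alternative settings, between 0.426 and 0.682 in FLOX and between 0.294 and 0.425 in the other library. Pdcd1+ cells are deeper by construction, since a Pdcd1 UMI is found more often in a cell with more UMIs (medians 3810 against 3063 UMIs in FLOX, and 3727 against 2799). Tcf7 was at 19.0 and 30.1 CPM in FLOX Pdcd1+ and Pdcd1- CD8 T cells, and the interval of their ratio, 0.306 to 1.34, holds 1.

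Tcf7 in CD4 T cells rests on few cells. Pdcd1- cells held 10 of 13 Tcf7 UMIs in FLOX, at 102 CPM, and all 10 in the library labelled MCT1-KO, also at 102 CPM. The Pdcd1+ cells held 3 UMIs in 2 cells of FLOX (7.86 CPM) and none in 34 cells of the other library, where 3 UMIs would be 20.9 CPM and the counting interval reaches 25.7 CPM. The Tcf7 UMIs of the Pdcd1- cells came from only 3 of 20 and 6 of 32 cells.

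**Figure D2:**
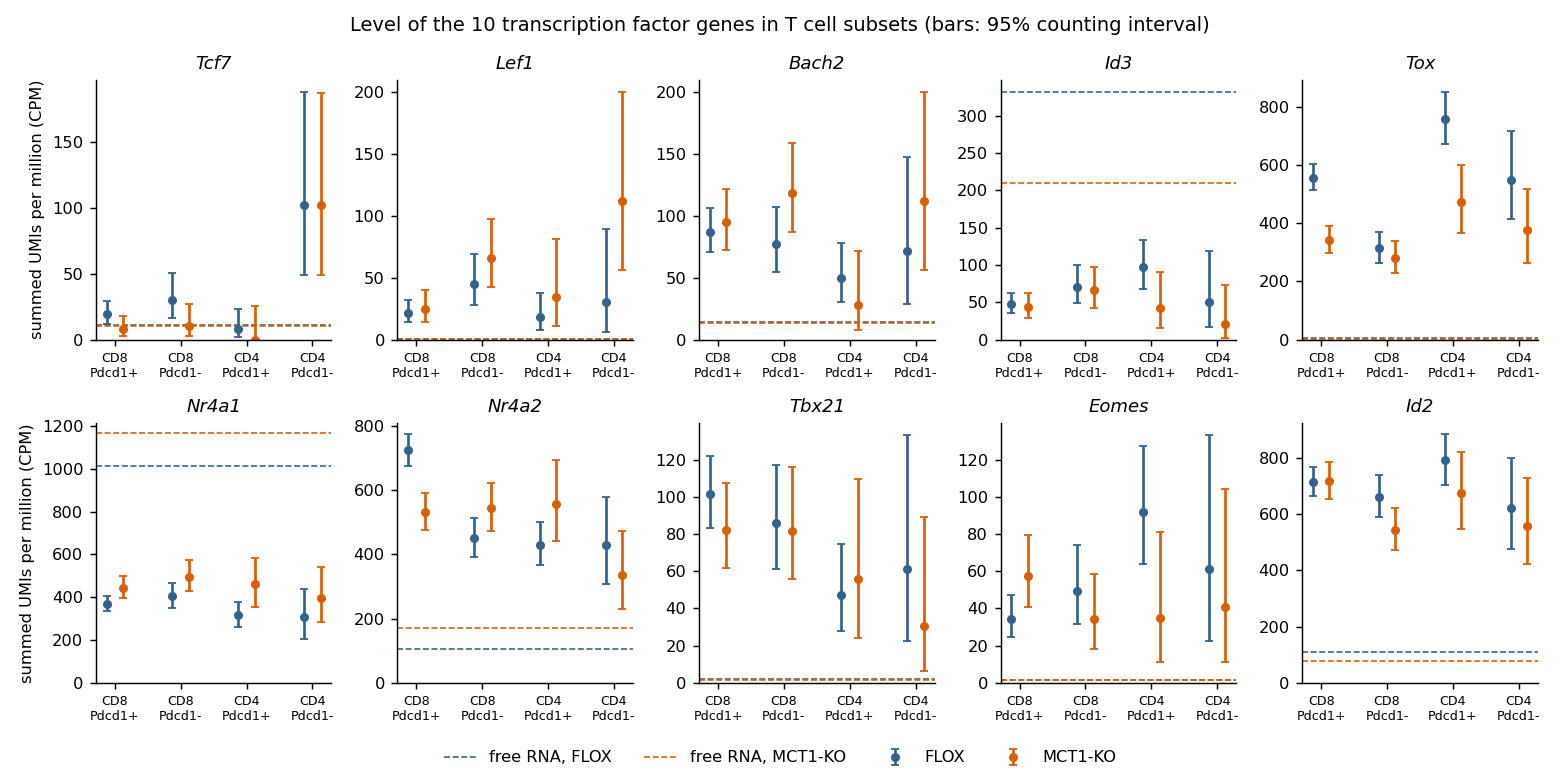
CPM of each gene (y axis, linear from 0) in CD8 and CD4 T cells with or without a Pdcd1 UMI (x axis) for the FLOX library (blue) and the library labelled MCT1-KO (orange). Points are sums over the cells of a subset, bars are 95% counting intervals and dashed lines are the level in free RNA. Tox and Nr4a2 stand highest in FLOX Pdcd1+ CD8 T cells among CD8 subsets (558 and 724 CPM), and Id3 and Nr4a1 lie below the free RNA lines.

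Tox, the factor that programs exhaustion, was the member with the clearest difference between the libraries. In CD8 T cells it had 763 UMIs in FLOX (486 CPM, 452 to 522) and 327 UMIs in the library labelled MCT1-KO (320 CPM, 286 to 356). The intervals do not overlap, and the ratio was 0.658 (0.576 to 0.750), so Tox was 1.52 times higher in FLOX. The CD4 T cells held 344 UMIs (717 CPM) and 105 UMIs (434 CPM), a ratio of 0.605 (0.481 to 0.755). A Tox UMI was found in 67.4% (62.0 to 72.4) of FLOX CD8 T cells and 56.0% (49.1 to 62.7) of the others, and at 1000 UMIs per cell in 31.7% (26.7 to 37.0) and 26.1% (20.3 to 32.5), where the intervals overlap. The share in macrophage-like cells was 0.797% and 0.0487%. The 5 CD8 T cells richest in Tox held 8.13% and 14.4% of its UMIs, so no few cells carried the level.

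The Tox ratio in CD8 T cells lay just past the fold limit of 1.5 and was under 1 in all 13 alternatives that gave a value. It was 0.703 (0.616 to 0.802) when mitochondrial, ribosomal, heat shock and acinar genes were left out of the total, and 0.696 (0.595 to 0.814) without the T cells holding an Hspa1a UMI, a setting chosen after the data had been seen. It was 0.758 (0.664 to 0.863) without an upper limit on genes per cell. These 3 settings end the call while keeping an interval under 1. When acinar genes set the free RNA to subtract, the estimated shares of free RNA were 51.1% in FLOX and 13.3% in the other library, and the ratios of all 8 members with a value moved down together. Tox went to 0.373, Tbx21 from 0.848 to 0.482, Id2 from 0.935 to 0.563, Eomes from 1.26 to 0.722 and Lef1 from 1.40 to 0.795, so this setting shows nothing particular to Tox. Tox also differed in free RNA (5.81 and 2.61 CPM, a ratio of 0.449), at a level far under that of T cells, and CD8 T cells that passed the NK-like gate made up 11.8% and 5.05%. The part of these in the Tox ratio was not tested.

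By CPM the library difference in Tox was larger in Pdcd1+ than in Pdcd1- CD8 T cells. Of the CD8 T cells, 222 of 331 (67.1%) and 118 of 218 (54.1%) were Pdcd1+, and Pdcd1 itself was at 402 and 259 CPM over all CD8 T cells. In these Tox was at 558 CPM in FLOX and 343 CPM in the other library, a ratio of 0.615 (0.525 to 0.718). In Pdcd1- CD8 T cells it was at 314 and 280 CPM, a ratio of 0.890 (0.687 to 1.15) whose interval holds 1. The difference between these ratios was not tested. Counted by cells, 162 of 222 FLOX and 81 of 118 other Pdcd1+ CD8 T cells held a Tox UMI. Among Pdcd1- CD8 T cells 61 of 109 and 41 of 100 did, so these shares did not single out Pdcd1+ cells. In CD4 T cells the library ratio of Tox was 0.622 (0.471 to 0.813) in Pdcd1+ and 0.684 (0.437 to 1.06) in Pdcd1- cells. Split the other way, Tox in FLOX was 1.78 times higher in Pdcd1+ than in Pdcd1- CD8 T cells (1.48 to 2.14), and in the library labelled MCT1-KO 1.23 times (0.970 to 1.56). Over the alternatives these ratios ranged from 1.66 to 2.305 and from 1.09 to 1.573, both highest at 1000 UMIs per cell. The summed acinar genes differed along the same split, at 63.4 CPM in Pdcd1+ and 445 CPM in Pdcd1- cells of FLOX and at 1734 and 3637 CPM in the other library. Their part in the Tox and Nr4a2 ratios by Pdcd1 was not tested. In CD4 T cells the Tox ratio of Pdcd1+ to Pdcd1- cells was 1.38 (1.03 to 1.88) in FLOX and 1.26 (0.830 to 1.93) in the other library.

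Counted by the number of Pdcd1 UMIs in a cell, Tox in FLOX CD8 T cells was at 504 CPM with 1 UMI, 583 CPM with 2 and 577 CPM with 3 or more, against 314 CPM with none. In the library labelled MCT1-KO the values were 303, 321 and 407 CPM, against 280 CPM with none. In FLOX all 3 groups with Pdcd1 lay above the interval of the cells without it (265 to 369 CPM). In the other library the cells with 3 or more Pdcd1 UMIs also lay above the interval of the cells with none, 229 to 338 CPM. Their own interval, 326 to 503 CPM, overlapped it, and the cells with 1 and 2 lay within it.

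**Figure D3:**
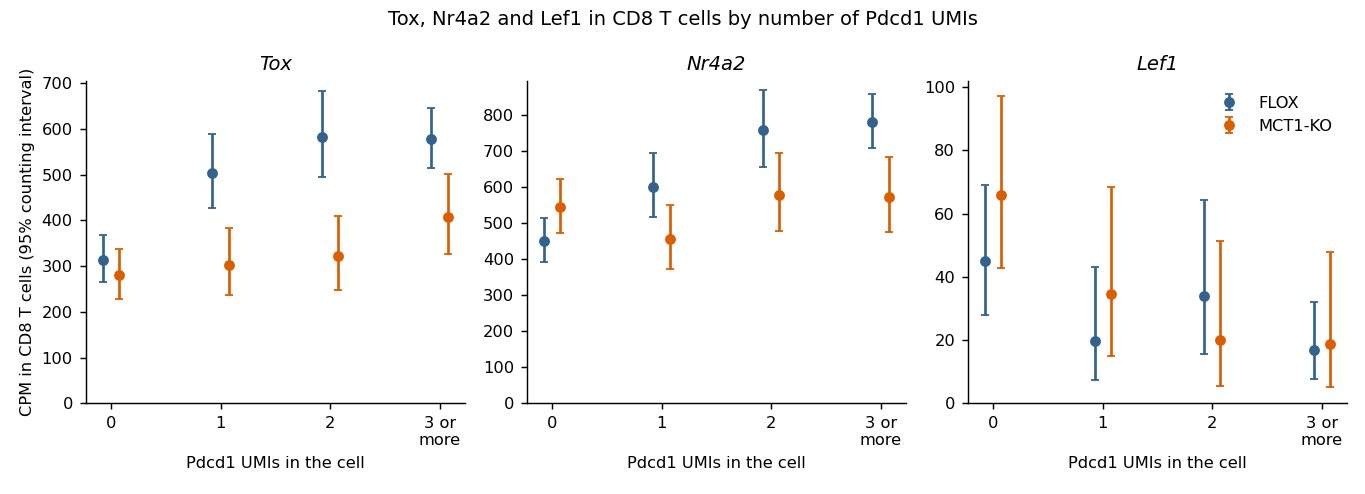
CPM of Tox, Nr4a2 and Lef1 (y axes, linear from 0) in CD8 T cells with 0, 1, 2 and 3 or more Pdcd1 UMIs (x axis), with 95% counting intervals. In FLOX (blue) Tox goes from 314 to 577 CPM and Nr4a2 from 449 to 779 CPM. In the library labelled MCT1-KO (orange) Tox goes from 280 to 407 CPM, and Nr4a2 starts at 543 CPM and ends at 571 CPM.

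In CD8 T cells Nr4a2 followed the same split in FLOX. This orphan nuclear receptor was at 724 CPM in Pdcd1+ and 449 CPM in Pdcd1- CD8 T cells of FLOX, a ratio of 1.61 (1.38 to 1.88). It fell just short of the fold limit without an upper gene limit (1.48, 1.28 to 1.71) and over all T cells (1.496, 1.33 to 1.69). In the library labelled MCT1-KO the values were 531 and 543 CPM, a ratio of 0.978 (0.821 to 1.17). That ratio lay over 1 in 7 of 15 alternatives, between 0.895 and 1.20. By cells, Nr4a2 was in 84.2% of Pdcd1+ and 61.5% of Pdcd1- FLOX CD8 T cells. In the other library it was in 75.5%, 81.8% and 86.1% of those with 1, 2 and 3 or more Pdcd1 UMIs. Over all 218 CD8 T cells there 156 held Nr4a2. By Pdcd1 UMIs it was at 599, 756 and 779 CPM in FLOX with 1, 2 and 3 or more, and at 455, 577 and 571 CPM in the other library. Across the libraries it was lower in Pdcd1+ cells of the one labelled MCT1-KO, with a ratio of 0.734 (0.645 to 0.834), and at 1.21 (0.992 to 1.47) in Pdcd1- cells. Over all CD8 T cells it had 1009 and 548 UMIs (643 and 536 CPM), a ratio of 0.834 (0.750 to 0.926) that did not reach the fold limit. In CD4 T cells the Nr4a2 ratio of Pdcd1+ to Pdcd1- cells was 1.00 (0.711 to 1.44) in FLOX. It was 1.66 (1.09 to 2.57) in the other library, past the fold limit, and the difference between these ratios was not tested.

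Nr4a1, the gene of NUR77 and a common readout of T cell receptor signalling, did not share these patterns. It was at 379 CPM (595 UMIs) in FLOX CD8 T cells and 464 CPM (474 UMIs) in the others, a ratio of 1.22 (1.08 to 1.38). Pdcd1+ and Pdcd1- CD8 T cells differed little, with ratios of 0.911 (0.765 to 1.09) and 0.896 (0.743 to 1.08). Over all T cells of FLOX the ratio was 0.569 (341 against 599 CPM), where 5 Pdcd1- cells held 34.6% of the Pdcd1- UMIs. The 5 richest cells carried 18.3% and 38.6% of its CD8 UMIs, and a single cell of the library labelled MCT1-KO held 49 of the 474. The direction was not stable, since the ratio was 0.938 when T cells that passed another gate were left out and 0.987 at 1000 UMIs per cell. In CD4 T cells Nr4a1 was at 313 and 434 CPM, a ratio of 1.39 (1.07 to 1.79), and there the 5 richest cells of the second library held 62.9% of its UMIs and the ratio at 1000 UMIs per cell was 0.516. Nr4a3, the third member of the family and no member of the set, was at 166 and 182 CPM in CD8 T cells, a ratio of 1.10 (0.905 to 1.33).

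**Figure D4:**
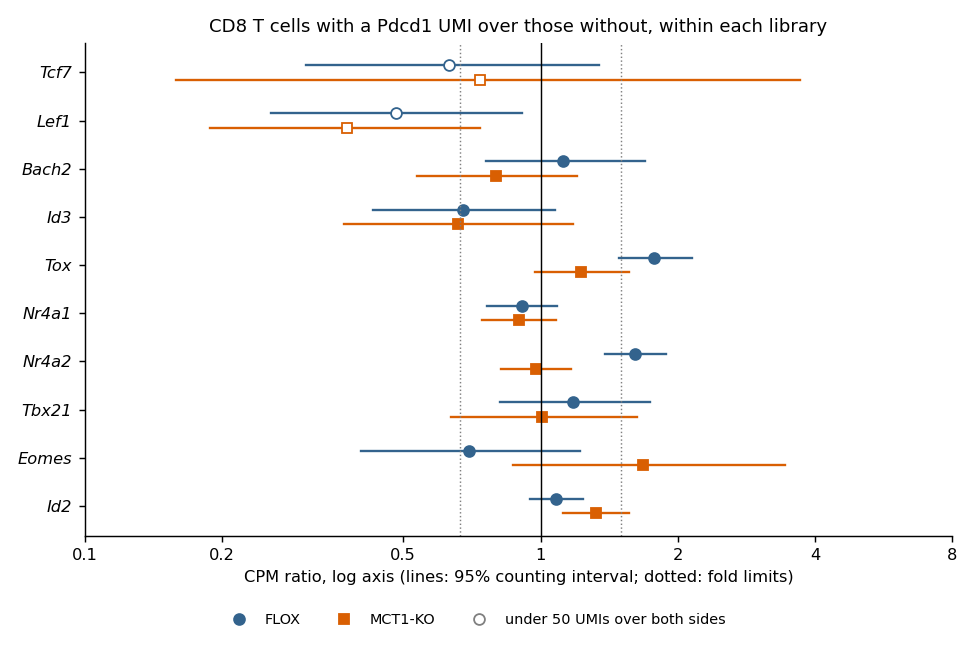
CPM ratio of Pdcd1+ to Pdcd1- CD8 T cells (x axis, log scale) for each gene in FLOX (circles) and in the library labelled MCT1-KO (squares), with 95% counting intervals, dotted lines at the fold limits and open symbols under 50 UMIs. In FLOX Tox and Nr4a2 lie past 1.5 (1.78 and 1.61), and in the other library they are at 1.23 and 0.978, and the difference between the libraries was not tested.

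By the rule that a ratio of at least 1.5 or its inverse, an interval without 1 and at least 50 UMIs make a call, 2 of the 8 members with enough UMIs were higher in Pdcd1+ CD8 T cells of FLOX (Tox and Nr4a2) and 0 were lower. Over all 4397 genes with enough UMIs the shares called were 5.48% higher and 3.59% lower. In the library labelled MCT1-KO 0 of 8 members were called in either direction, where 4.42% and 5.73% of 3056 genes were higher and lower. Id2 there had a ratio of 1.32 (1.12 to 1.56) and in FLOX 1.08 (0.948 to 1.24). No test stands behind these counts.

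Of the effector group, neither Tbx21 nor Id2 was called between the libraries. Tbx21, the gene of T-bet, was at 96.8 CPM (152 UMIs) and 82.1 CPM (84 UMIs) in CD8 T cells, a ratio of 0.848 (0.642 to 1.11). Id2, an inhibitor of E proteins that effector T cells need, was at 699 CPM (1097 UMIs) and 653 CPM (668 UMIs), a ratio of 0.935 (0.848 to 1.03). At 1000 UMIs per cell Tbx21 was at 1.32 (0.711 to 2.41). The share of CD8 T cells with an Id2 UMI was 84.3% and 72.9%.

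Eomes, a T-box factor found in late and memory CD8 T cells, had 61 UMIs (38.9 CPM) and 50 UMIs (48.9 CPM) in CD8 T cells, a ratio of 1.26 (0.848 to 1.86). In Pdcd1+ CD8 T cells it was at 34.4 and 57.5 CPM, a ratio of 1.67 (1.03 to 2.70). In Pdcd1- CD8 T cells it was at 49.5 and 34.3 CPM (0.693, 0.323 to 1.43). In CD4 T cells it had 41 UMIs in 25 of 69 FLOX cells (85.5 CPM) and 9 UMIs in 6 of 66 cells of the other library (37.2 CPM), a ratio of 0.435 (0.186 to 0.909). Without possible doublets the CD4 ratio was 0.366 (0.155 to 0.776), on fewer than 50 UMIs and so no call. The difference between the subsets was not tested.

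**Figure D5:**
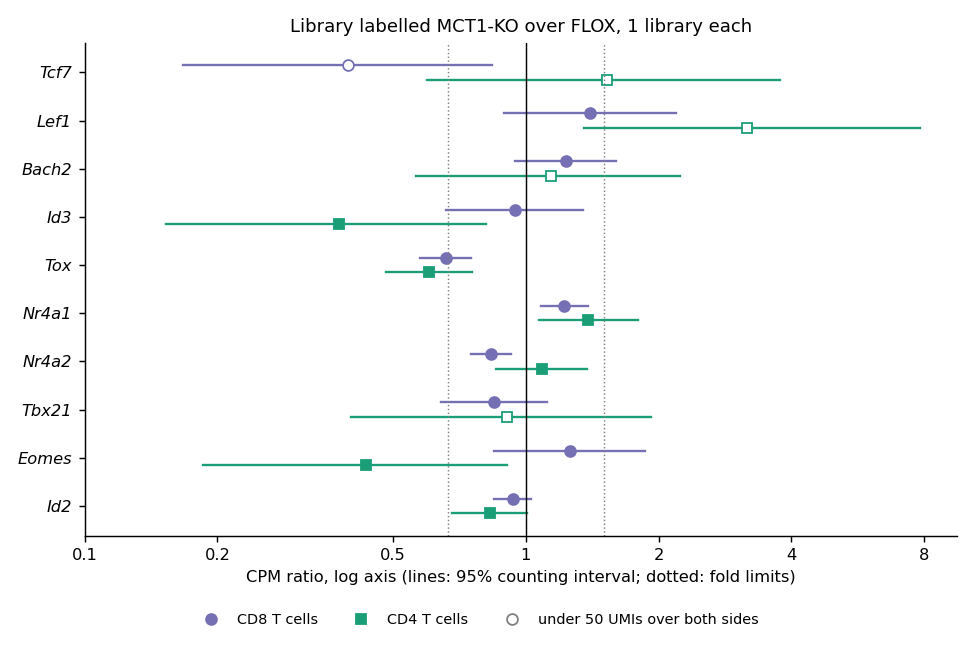
CPM ratio of the library labelled MCT1-KO to FLOX (x axis, log scale) for each gene in CD8 T cells (circles) and CD4 T cells (squares), with 95% counting intervals, dotted lines at the fold limits and open symbols where both sides together had under 50 UMIs. Tox lies below the lower limit in both subsets (0.658 and 0.605), and the intervals of Bach2 and Tbx21 hold 1 in both.

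Between the libraries, 0 of the 9 members with enough UMIs were higher and 1 was lower (Tox) in CD8 T cells labelled MCT1-KO, beside 5.23% higher and 8.45% lower among 6094 genes. The median ratio of the 10 members was 0.940 and that of all genes 0.990. In CD4 T cells 0 of 6 members were higher and 3 were lower (Tox, Eomes and Id3), beside 8.67% and 11.3% of 2294 genes. Id3 there was at 87.6 CPM (42 UMIs) and 33.1 CPM (8 UMIs), and 76.2% of its FLOX UMIs came from 5 cells. With possible doublets left out Tox kept its call in CD4 T cells, at a ratio of 0.590 (0.461 to 0.750). Eomes stayed at 0.366 but fell under the minimum of 50 UMIs, and Id3 was left with 6 and 2 UMIs. At 1000 UMIs per cell none of the 3 calls was kept, with Tox at 0.666 (0.414 to 1.06), Eomes at 0.303 (0.0307 to 1.59) and Id3 turned to 1.06 (0.0769 to 14.6) on 2 UMIs in each library. With at least 3 Cd3 UMIs Tox alone was called. The macrophage-like gate was passed by 27.5% of FLOX CD4 T cells and 4.55% of the others. Its part in the CD4 values of Eomes and Id3 was not tested.

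CD8 and CD4 T cells were compared within each library. In FLOX Tbx21 was higher in CD8 T cells (96.8 against 50.1 CPM, a ratio of 1.93, 1.25 to 3.11), as was Bach2 (84.1 against 54.2 CPM, 1.55, 1.01 to 2.46). Eomes was lower in CD8 T cells (38.9 against 85.5 CPM, 0.454, 0.301 to 0.692), as was Id3 (0.625, 0.428 to 0.927). The direction of Id3 turned in 3 of 11 alternatives, to 1.18 without an upper gene limit, 1.96 without possible doublets and 1.05 at 1000 UMIs per cell. At that depth the other calls were lost too, with ratios of 1.37 (0.474 to 5.39) for Tbx21, 1.19 (0.495 to 3.47) for Bach2 and 0.331 (0.117 to 1.01) for Eomes. These 2 higher and 2 lower of 9 members stood beside 5.15% and 7.39% of 5318 genes. In the library labelled MCT1-KO 0 of 9 members were called in either direction, beside 4.08% and 6.59% of 3674 genes, while Tbx21 and Bach2 had ratios of 1.81 (0.960 to 3.76) and 1.67 (0.969 to 3.09). Tox was lower in CD8 than in CD4 T cells in both libraries, by ratios of 0.677 (0.596 to 0.772) and 0.737 (0.590 to 0.927), short of the fold limit. Foxp3, which marks regulatory CD4 T cells, was found in 3 CD4 T cells of each library.

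The factors were also counted together in single CD8 T cells, where detection depends on depth. Cells with Pdcd1 and Tox but neither Tcf7 nor Lef1, the pattern known for exhausted cells, made up 42.6% (141 of 331, 37.2 to 48.1) in FLOX and 33.5% (73 of 218, 27.3 to 40.2) in the library labelled MCT1-KO. At 1000 UMIs per cell they made up 13.7% (10.2 to 17.9) and 6.16% (3.32 to 10.3). Cells with Pdcd1, Tox and either Tcf7 or Lef1 numbered 21 and 8, and 0 in both libraries at equal depth. Of all CD8 T cells 83.1% and 81.65% held neither Tcf7 nor Lef1, so lacking both sets few cells apart. Cells with both Tcf7 and Pdcd1, the pattern known for precursors of exhausted cells, numbered 17 (5.14%, 3.02 to 8.10) and 4 (1.83%, 0.502 to 4.63), and at equal depth 3 and 1. In FLOX 63.0% of cells with Tcf7 held Pdcd1, against 67.4% of those without. In the other library these shares were 50% and 54.3%. Of cells with Tox, 72.65% and 66.4% held Pdcd1, against 55.6% and 38.5% of those without Tox. At equal depth these were 43.3% and 23.6%, against 36.2% and 28.85%, with intervals that overlap. Cells with neither Pdcd1 nor Tox made up 14.5% (10.9 to 18.8) and 27.1% (21.3 to 33.5), and at equal depth 43.6% (38.2 to 49.1) and 52.6% (45.6 to 59.5).

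Tox was counted in cells with and without the stem-like genes. In the library labelled MCT1-KO 1 of 8 CD8 T cells with Tcf7 held Tox, and of its 33 with Lef1 13 did (39.4%, 22.9 to 57.9), against 58.9% (51.5 to 66.1) of the cells without Lef1. In FLOX 16 of 27 Tcf7 cells held Tox (59.3%, 38.8 to 77.6), against 68.1% of the rest, and 22 of 37 Lef1 cells did (59.5%, 42.1 to 75.3), against 68.4%. These intervals overlap. At equal depth 3 of 13 Lef1 cells held Tox in the library labelled MCT1-KO (23.1%), against 26.3% of the rest, and 2 of 16 in FLOX (12.5%), against 32.7%. No difference between these shares was tested. By level, CD8 T cells with a Tcf7 or Lef1 UMI held Tox at 415 CPM in FLOX, against 501 CPM in the rest (0.829, 0.674 to 1.01), and at 207 against 342 CPM in the other library (0.605, 0.414 to 0.862). They held more Bach2, with ratios of 2.10 (1.42 to 3.07) and 1.64 (1.01 to 2.58), and less Nr4a2, with ratios of 0.618 (0.506 to 0.750) and 0.704 (0.537 to 0.910). Tbx21 was at 0.474 (0.252 to 0.822) in FLOX and 1.28 (0.705 to 2.21) in the other library, on 14 and 17 UMIs in the cells with Tcf7 or Lef1. These intervals overlap, and the difference was not tested. Eomes was at 2.28 (1.26 to 3.98) and 0.822 (0.312 to 1.84).

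Tox and Nr4a2 were often found in the same cell. Of the Nr4a2 cells 71.7% (65.7 to 77.1) held Tox in FLOX, against 53.2% (41.5 to 64.7) of those without Nr4a2, and 64.1% (56.0 to 71.6) against 35.5% (23.7 to 48.7) in the other library. At equal depth the shares were 38.6% against 26.2% and 32.1% against 22.0%, with intervals that overlap. Of cells with Nr4a1, 79.7% and 76.7% also held Nr4a2. At equal depth these were 44.1% and 33.3%, against 44.3% and 42.4% of cells without Nr4a1. Of cells with Eomes, 26.7% and 33.3% held Tbx21, against 32.9% and 29.2% of the rest. At equal depth 0 of 10 and 3 of 11 did, too few cells to read a link or its absence.

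T cells with neither a Cd8 nor a Cd4 UMI were shown for completeness. In these 87 and 109 cells Nr4a2 was at 347 CPM in FLOX and 587 CPM in the other library, a ratio of 1.69 (1.37 to 2.09). Of its 250 UMIs in the library labelled MCT1-KO 5 cells held 56.4%, 1 of them 47, and the share of cells with an Nr4a2 UMI was 59.8% in FLOX and 51.4% there (30.1% and 32.0% at equal depth). Bach2 was at 66.5 and 146 CPM (2.19, 1.37 to 3.58). Tox was at 310 and 254 CPM (0.817, 0.626 to 1.065) and was not called. Id3 was at 286 and 106 CPM (0.370, 0.256 to 0.526), and 5 cells held 80.2% of its UMIs in FLOX and 66.7% in the other library. Nr4a2 in free RNA also differed in this direction, 106 against 169 CPM, and its part in this ratio was not tested.

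Genes that work with these factors were read from lists. Over all genes in CD8 T cells 5.23% were called higher and 8.45% lower in the library labelled MCT1-KO. Of 10 exhaustion receptors 0 were higher and 5 lower there, with a median ratio of 0.655 beside 0.990 for all genes. The list had a median ratio of 0.642 in free RNA and 0.624 in tumor epithelial-like cells, at far lower summed levels (119 and 77.7 CPM in free RNA, 53.4 and 28.8 CPM in tumor epithelial-like cells, 1886 and 1397 CPM in CD8 T cells), and 1.03 in macrophage-like cells. The part of free RNA in the CD8 T cell values was not tested. Lag3, an inhibitory receptor, was at 169 and 102 CPM (0.600, 0.474 to 0.756), Ctla4 at 536 and 307 CPM (0.573, 0.501 to 0.653) and Havcr2, the gene of TIM-3, at 109 and 81.2 CPM (0.745, 0.566 to 0.974). Tnfrsf9, the gene of the costimulatory receptor 4-1BB, went the other way, at 402 and 535 CPM (1.33, 1.19 to 1.49). Of 7 naive and memory genes with enough UMIs 3 were higher and 1 lower, beside the same 5.23% and 8.45%. This list summed to 842 and 940 CPM in CD8 T cells and to 871 and 626 CPM in free RNA, so free RNA held it at a similar level. Its median ratio was 1.09 in CD8 T cells and 0.781 in free RNA, and the part of free RNA was not tested. Ccr7, a homing receptor of naive cells, was at 20.4 and 114 CPM (5.61, 3.77 to 8.58), Satb1 at 42.7 and 149 CPM (3.48, 2.60 to 4.72) and Il7r at 97.5 and 162 CPM (1.67, 1.33 to 2.09), and Klf2 at 341 and 179 CPM (0.524, 0.441 to 0.621). Tcf7 did not share the direction of Ccr7, Satb1 and Il7r.

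Of 14 other T cell transcription factors with enough UMIs 0 were higher and 4 lower in CD8 T cells labelled MCT1-KO, beside 5.23% and 8.45% of all genes. Among them Rbpj, the nuclear partner of Notch, was at 264 and 152 CPM (0.573, 0.474 to 0.691). Between Pdcd1+ and Pdcd1- CD8 T cells of FLOX 4 of 10 exhaustion receptors were higher, Havcr2 by 1.90 (1.28 to 2.90) among them, out of 9 with enough UMIs and beside 5.48% of all genes. In the other library 2 of 8 were higher, beside 4.42% of all genes, while Havcr2 had a ratio of 1.37 (0.842 to 2.28). Of the 14 other factors with enough UMIs 1 was higher in Pdcd1+ CD8 T cells of FLOX, beside 5.48% of all genes. This was Ikzf2, the gene of Helios, at 310 against 103 CPM (3.01, 2.22 to 4.16). In the other library 1 of 10 was higher, beside 4.42%.

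Genes with the most similar levels were sought over 8 sums, CD8 or CD4 with or without Pdcd1 in each library, among 2479 genes with at least 200 UMIs. These sums share libraries and depth, and the correlations of log2(CPM + 10) are descriptions. Tcf7 itself had only 67 UMIs over the 8 sums and 0 in 1 of them, so its correlations rest on few counts. Nearest to Tcf7 were Chd2 (r = 0.960), N4bp2l2 (0.949), Ube2h (0.939), Elf2 (0.935) and Hp1bp3 (0.932). Among those nearest to Tox were Psmd14 (0.938), Etfb (0.935) and Pclaf (0.928). Nearest to Nr4a1 were the ribosomal protein genes Rps28 (0.974), Rpl18 (0.957), Rpl38 (0.953), Rpl23 (0.951) and Rps10 (0.949). Among the members Tox had r = -0.794 with Nr4a1 and r = -0.640 with Lef1.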

How the data were processed

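Tumors of both conditions were measured by 3′ single-cell RNA sequencing, 1 library per condition. The authors trimmed reads with Fastp, counted with SeekOneTools and deposited raw UMI counts per gene and barcode with no normalization. The submitters' notes name Seurat 4.0.0 and a human build, while the gene list holds mouse Ensembl identifiers, and which build the counting used is not given in the sources used here. Barcodes with at least 500 UMIs, 200 to 5000 genes and at most 8% mitochondrial UMIs were kept (8739 and 11689 of 1437105 and 1433633 barcodes). Doublets were not removed, and an alternative leaves out T cells that pass another gate. UMIs were summed per subset with python 3.11.15, numpy 2.4.6, scipy 1.17.1 and pandas 2.3.3. Figures used matplotlib 3.10.9. Levels have exact Poisson, shares Clopper-Pearson and ratios conditional exact intervals at 95%. UMIs are counted molecules, but the intervals cover counting error only. A call needed a ratio of 1.5 or its inverse, an interval without 1 and 50 UMIs over both sides. No p-value is given, since cells are not replicates. Thinning drew 1000 UMIs per cell (seed 1) and left out shallower cells. The limit for 0 UMIs is 3 UMIs. Named genes were the 10 members, the gate genes, Pdcd1, Slc16a1, up to 4 genes per list and the 5 most similar to Tcf7, Tox and Nr4a1, of which some are not reported here. The members and lists were chosen with earlier results of these data known. The intervals were tried on simulated Poisson counts, the model they assume, so this says nothing of spread between cells or mice. Alternatives changed the T cell rule, depth, mitochondrial and gene limits, doublets, totals, cell weights, free RNA and the UMI minimum.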

Additional observations from a re-analysis of the deposited data

Results flagged for a closer look

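Over 5 contrasts read in 2 groups each and 10 genes, 1 gene had ratios on opposite sides of 1 with both counting intervals leaving out 1. Nr4a2 in the library labelled MCT1-KO over FLOX was at 0.834 in CD8 T cells and at 1.69 in T cells with neither a Cd8 nor a Cd4 UMI. With 1 library per condition the difference between the 2 ratios was not tested. In the latter 5 cells of the library labelled MCT1-KO held 56.4% of the 250 UMIs, and the share of cells with an Nr4a2 UMI was 51.4% there and 59.8% in FLOX.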

How the results depend on the processing

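No paired analysis was possible because each condition has 1 library and no test was run, and no library could be left out. The counts of members past the fold limits moved by more than 1.5 times as follows, and the cause was not tested. Between the libraries in CD8 T cells the count was 1, and it was 0 with mitochondrial, ribosomal, heat shock and acinar genes out of the total and 0 without Hspa1a cells. It was 2 without an upper gene limit, 2 without possible doublets, 2 with no UMI minimum, 3 with the mean of single cells, 3 over all T cells and 4 with free RNA subtracted by acinar genes, a setting whose unequal free RNA shares (51.1% and 13.3%) lowered all 8 members with a value together. In CD4 T cells the 3 became 1 with at least 3 Cd3 UMIs, 1 without possible doublets and 1 (Nr4a1, lower) thinned to 1000 UMIs per cell. For Pdcd1+ over Pdcd1- cells in FLOX the 2 became 1 without an upper gene limit, where Nr4a2 was lost, and 4 over all T cells. In the library labelled MCT1-KO the 0 became 1 with collagen genes subtracted as free RNA, 1 with no UMI minimum and 2 over all T cells. For CD8 over CD4 T cells in FLOX the 4 became 0 when thinned. In the other library the 0 became 1 under each of 6 settings: at least 3 Cd3 UMIs, a higher minimum of UMIs per cell, no upper gene limit, single-cell means, collagen genes subtracted and no UMI minimum. Of 793 single-gene alternatives 728 kept their value within the counting interval, 61 moved, and in 4 a ratio past the fold limits turned direction, all in Id3. Its MCT1-KO over FLOX ratio in CD4 T cells was 1.06 when thinned, and its CD8 over CD4 ratio in FLOX was 1.18 without an upper gene limit, 1.96 without possible doublets and 1.05 when thinned. Ratios that were not past the limits also crossed 1, among them Nr4a1 between the libraries, at 0.938 in CD8 T cells without possible doublets and 0.516 in CD4 T cells when thinned, and Tbx21, at 1.32 in CD8 T cells when thinned. Thinning also moved the Pdcd1+ to Pdcd1- ratio of Eomes, from 0.695 to 2.15 in FLOX and from 1.68 to 8.84 in the other library. Only 10 and 11 CD8 T cells held Eomes then. That of Tbx21 in the library labelled MCT1-KO went from 1.01 to 2.73. The free RNA share from collagen genes was at its cap of 100% in FLOX CD8 and FLOX CD8 Pdcd1+ cells. That from acinar genes was at the cap in FLOX CD8 Pdcd1- cells, against 51.1% in FLOX CD8 T cells. At the cap the marker genes were no lower than in free RNA (acinar genes 445 against 345 CPM). These subtractions gave no estimate and no value there. Depth limits Tcf7 most, with 35 and 9 UMIs in CD8 T cells.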
